A study of Mus musculus with 6 samples.

Results

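The genes described here are the receptor, kinase, STAT and IRF components through which cells respond to type I interferon. They are *Ifnar1*, *Ifnar2*, *Jak1*, *Tyk2*, *Stat2*, *Irf9*, *Irf1*, *Irf7* and *Socs1*. They were chosen by gene symbol, and all 9 were found among the 37310 genes of the count table. Whole brain was taken from 12-week-old male C57BL/6 mice of 2 genotypes, with 3 independent animals and so 3 RNA-seq libraries each. The test group was Adar1 E861A/E861A Ifih1-/-, homozygous in every tissue for a point mutation that abolishes RNA editing by ADAR1. The control group was Adar1+/+ Ifih1-/-, called wild type here for its *Adar1* alleles only. Both groups therefore had no functional *Ifih1*, the gene of MDA5, a sensor of double-stranded RNA, and no *Ifih1* wild-type brain was among the libraries. The comparison addressed what loss of ADAR1 editing does to the adult brain transcriptome when MDA5 is absent.

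Type I interferons bind a receptor made of IFNAR1 and IFNAR2, which activates the kinases TYK2 and JAK1 bound to its tails. The kinases phosphorylate STAT proteins, among them STAT2, which acts with IRF9 in the transcription factor complex ISGF3. ISGF3 binds interferon-stimulated response elements and switches on antiviral and regulatory genes, among them *Irf7* and the genes of its own subunits. IRF7 and IRF1 are transcription factors that extend the response, and SOCS1 and USP18 shut the receptor complex down.

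Promoter sequence is shown first because ISGF3 and STAT dimers act through short motifs. The ISRE core, spelt GAAANNGAAA, and the gamma-activated site GAS, spelt TTCNNNGAA, were searched on both strands from 250 bases before to 50 bases after each RefSeq start. Of 32851 such windows in the genome, 3.44% held the ISRE core and 8.3% held GAS. All 9 members had a window, and the ISRE core lay in those of 2 members, *Stat2* and *Socs1*. GAS lay in those of 3 members, *Irf1*, *Ifnar1* and *Ifnar2*. A match is a description of these letters only. Sequences are given 5′ to 3′ on the strand of the gene, taken from RefSeq (GRCm38.p6), with positions from an exact match to NCBIM37, the build of the count table. The 60 bases around each match are shown with the motif in capitals, and for *Irf7*, which held neither motif, the 193 bases that lie outside its annotated transcripts.
Stat2, chr10:127707307-127707366, plus strand: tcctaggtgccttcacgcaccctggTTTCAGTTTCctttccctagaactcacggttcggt
Socs1, chr16:10785678-10785737, minus strand: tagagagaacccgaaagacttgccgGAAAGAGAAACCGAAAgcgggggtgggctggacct
Irf1, chr11:53583401-53583460, plus strand: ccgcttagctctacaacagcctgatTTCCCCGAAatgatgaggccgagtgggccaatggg
Ifnar2, chr16:91372789-91372848, plus strand: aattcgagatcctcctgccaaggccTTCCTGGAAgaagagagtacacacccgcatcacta
Ifnar1, chr16:91485404-91485463, plus strand: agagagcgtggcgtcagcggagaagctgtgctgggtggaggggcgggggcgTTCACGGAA
Irf7, chr7:148452381-148452573, minus strand: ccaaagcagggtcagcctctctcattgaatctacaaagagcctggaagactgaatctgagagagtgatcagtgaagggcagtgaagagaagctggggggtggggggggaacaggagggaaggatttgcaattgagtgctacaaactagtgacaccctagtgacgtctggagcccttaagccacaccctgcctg

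In *Stat2* the ISRE core lay on the reverse strand, from base -222 to base -213 relative to the start. In *Socs1* 2 overlapping ISRE cores ran from base -83 to base -68. The GAS of *Irf1* ran from base -90 to base -82 and that of *Ifnar2* from base -214 to base -206. In *Ifnar1* it ran from base -5 to base 4 around the start. *Irf9*, *Jak1* and *Tyk2* held neither motif in any window. Both *Irf9* windows lay inside the annotated gene, so sequence upstream of its annotated start was not searched, and the *Tyk2* window lay wholly upstream of that gene's annotated start. Of the 30 ISGF3 target genes listed further on, 20 had a window, of which 9 held the ISRE core and 5 held GAS. Of the 20 IRF1 and interferon-gamma targets, 15 had a window, of which 9 held the ISRE core and 5 GAS. Here and for the members a gene counted if any of its windows held a match. The genome shares are of single windows, so the 2 are not in like units.

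Library totals were 26853488 to 36285305 counts in *Adar1* E861A brain and 35702138 to 38076753 in wild type. Values per library are CPM, counts scaled to a common column total, and replicates are given in the order 1 to 3. Brain cell markers were abundant in every library, with summed levels of 6047 to 6239 CPM for 8 neuron markers and 4380 to 4757 CPM for 8 oligodendrocyte markers. *Adar1* E861A replicate 1 stood apart in pituitary transcripts, whose sum over 6 genes reached 441 CPM there, against 1.52 to 2.31 CPM in wild type. Summed astrocyte markers were 5657 to 5932 CPM in *Adar1* E861A brain and 5036 to 5315 CPM in wild type. Endothelial markers summed to 122 to 151 against 152 to 184 CPM, and choroid plexus markers to 228 to 339 against 396 to 417 CPM. The sums of these 3 lists did not overlap between genotypes, and neither did the levels of 13.8% of single tested genes. Median log2 fold changes of their tested genes, *Adar1* E861A against wild type, were 0.025, -0.27 and -0.21. A sum follows its most abundant genes, so the astrocyte sum does not stand for its list as a whole. Those for microglia (210 to 225 against 224 to 229 CPM), infiltrating monocytes and macrophages (15.1 to 23.0 against 12.4 to 16.1 CPM), lymphocytes (5.51 to 6.03 against 5.07 to 6.03 CPM) and red blood cells (26.5 to 37.3 against 30.3 to 51.5 CPM) overlapped. In the edgeR quasi-likelihood test, 0 of the 57 tested marker genes were called, 10 had an unadjusted p under 0.05, and DESeq2 called 2 and limma-voom 0. Over all tested genes edgeR called 0.506%, and 9.01% had an unadjusted p under 0.05. Of the 10, 4 were among the 8 endothelial markers, 2 each were neuron and choroid plexus markers, and 1 each microglia and astrocyte markers. The lymphocyte markers *Cd3g* and *Nkg7* had at most 3 counts in every library. The part played by these differences in the results that follow was not tested.

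Of the 9 members, 1 was called, *Irf7*, which was higher in *Adar1* E861A brain. Genes are called at an adjusted p under 0.05, and 0.506% of the 13649 tested genes reached this level (0.41% higher and 0.0952% lower). DESeq2 and limma-voom each called the same single member. *Irf9* and *Stat2* were also higher in each *Adar1* E861A library than in any wild-type library, but did not pass the test. These 3 of the 8 tested members had an unadjusted p under 0.05, as did 9.01% of all tested genes. Receptor and kinase transcripts overlapped between genotypes and did not pass the test. In whole brain, a change in the number of expressing cells and a change in RNA per cell cannot be told apart.

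**Figure D1:**
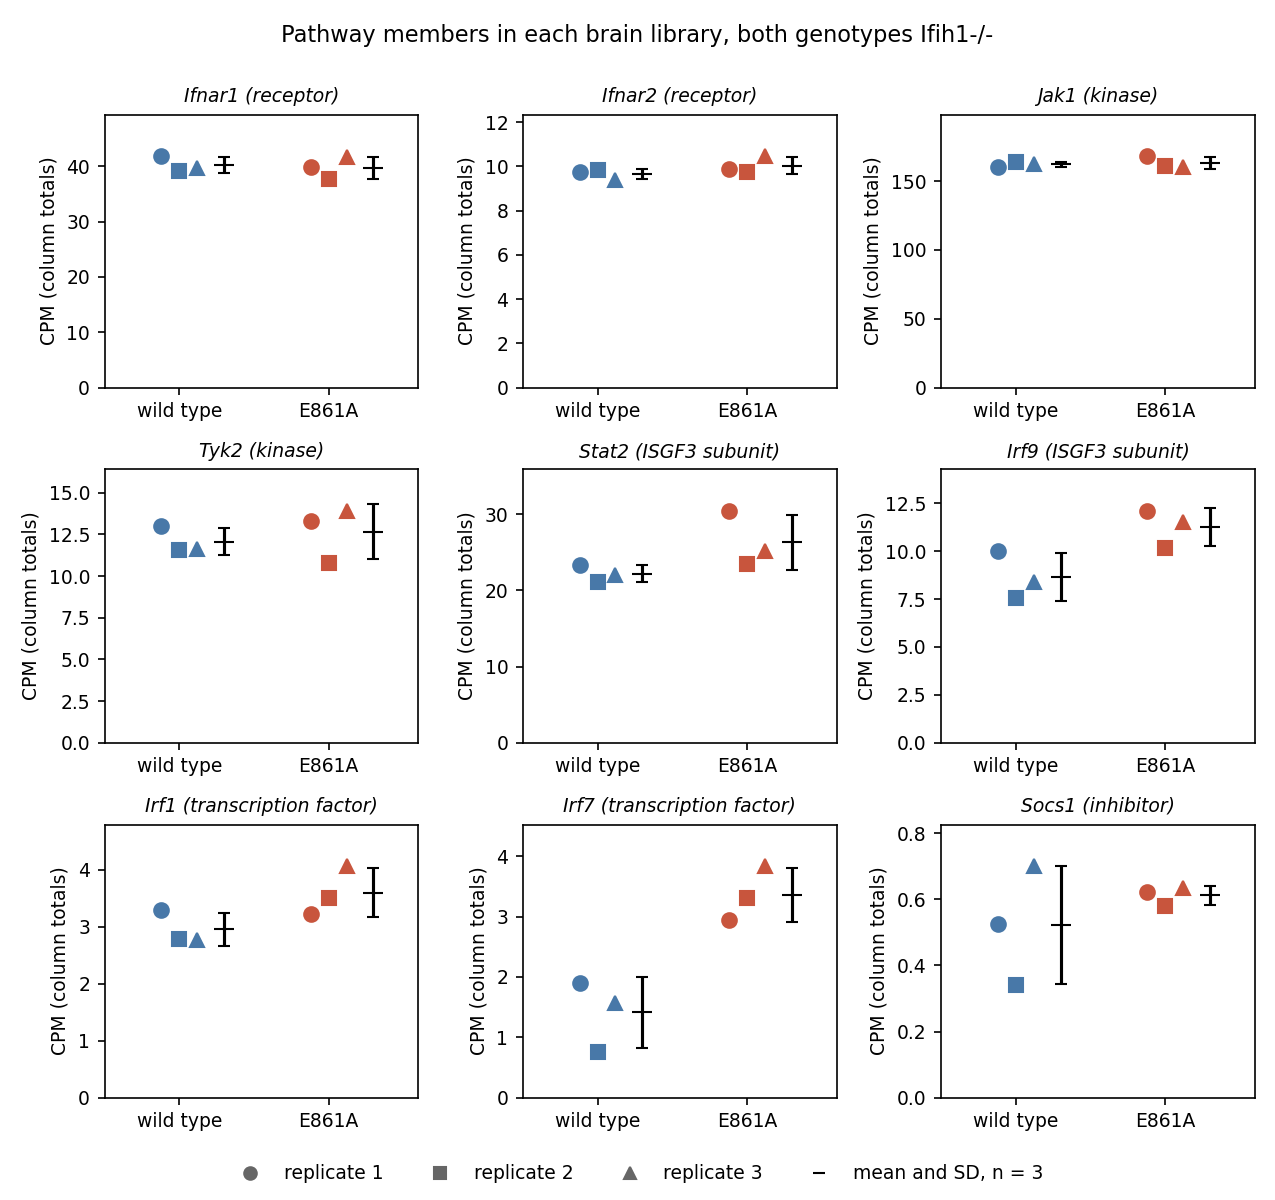
Level of each of the 9 members in CPM of the column total (y axis, from 0) for the 3 wild-type and 3 *Adar1* E861A libraries (x axis). Marker shape gives the replicate number and the bar beside each group the mean and SD (n = 3). The 3 *Adar1* E861A libraries of *Irf7* sit between 2.94 and 3.84 CPM, above the highest wild-type library at 1.91 CPM, while both groups of *Jak1* lie between 160 and 168 CPM.

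*Irf7* (ENSMUSG00000025498; NCBIM37 chromosome 7, 148448605 to 148452380, minus strand) encodes the factor that drives most interferon alpha genes. In the mutant libraries, those with *Adar1* E861A, it had 85, 120 and 103 counts, or 2.94, 3.31 and 3.84 CPM. Wild-type libraries had 69, 29 and 56 counts, or 1.91, 0.762 and 1.57 CPM. The groups did not overlap, and wild-type replicate 2 lay well below the other wild-type libraries. Mean levels were 3.36 ± 0.448 and 1.41 ± 0.589 CPM (SD, n = 3), and the log2 fold change was 1.26 ± 0.23 (SE; 95% interval 0.76 to 1.76) with an edgeR adjusted p of 0.0225. Of the 13649 tested genes, 16 had a higher log2 fold change. Between same-numbered libraries *Irf7* differed by 0.61, 2.10 and 1.30 on the log2 scale. Any pairing would give 3 of 3 higher, since the groups did not overlap.

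The *Irf7* call has 2 limits. It passed the filter on low counts (2 CPM or more in all 3 libraries of either genotype) through the *Adar1* E861A group only, which favours genes that are higher there. With edgeR's filterByExpr filter, which has a lower threshold, its log2 fold change was 1.25 ± 0.23 with an adjusted p of 0.0129, where 0.568% of 19366 genes were called. The call was lost without *Adar1* E861A replicate 3 (log2 fold change 1.15, adjusted p 0.322) and without wild-type replicate 3 (1.34, adjusted p 0.0824), and held in the 4 other omissions. Its size was smallest without wild-type replicate 2, the library with the lowest *Irf7* level, at 0.96 (adjusted p 0.0137). Without *Adar1* E861A replicate 1, the library with pituitary transcripts, the log2 fold change was 1.35 and the adjusted p 0.0338.

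The genes whose pattern over the 6 libraries was most like that of *Irf7* were *Gbp3*, *Gm5859* and *Rtp4*. Likeness was the root mean square difference in log2 CPM relative to the wild-type mean, which was 0.32, 0.32 and 0.33 on the log2 scale. Their own log2 fold changes were 1.42, 1.19 and 1.54, which the choice by likeness largely fixed. *Gbp3* encodes an interferon-inducible GTPase and *Rtp4* an interferon-inducible protein.

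ISGF3 subunits showed smaller differences. *Irf9* (ENSMUSG00000002325; chromosome 14, 56222408 to 56228867, plus strand) encodes the DNA-binding subunit of ISGF3. It stood at 12.1, 10.1 and 11.5 CPM in mutant libraries and at 10.03, 7.56 and 8.403 CPM in wild type. The lowest *Adar1* E861A library was barely above the highest wild-type one, so the groups were separate by a narrow margin. The log2 fold change was 0.37 ± 0.10 (SE; 95% interval 0.15 to 0.60), with an unadjusted p of 0.00298 and an adjusted p of 0.238. With the replicate number as a block it was 0.38 ± 0.08 with an adjusted p of 0.0466, a call in a fit where 1.16% of genes were called. No sample label pairs the animals, and that pairing was inferred from these same counts. The block fit left 2 residual degrees of freedom. The differences between same-numbered libraries were 0.26, 0.42 and 0.47, and any pairing would give positive ones, since the groups did not overlap.

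*Stat2* (ENSMUSG00000040033; chromosome 10, 127707629 to 127729905, plus strand) encodes the STAT particular to interferon signalling through ISGF3. Its levels were 30.4, 23.5 and 25.1 CPM in mutant libraries and 23.4, 21.2 and 22.1 CPM in wild type. *Adar1* E861A replicate 1 was the highest, and replicate 2 lay just above wild-type replicate 1. The log2 fold change was 0.24 ± 0.08 (SE; 95% interval 0.08 to 0.41), with an unadjusted p of 0.00769 and an adjusted p of 0.345. It was 0.14 without *Adar1* E861A replicate 1. With the replicate block the adjusted p was 0.071. The differences between same-numbered libraries were 0.37, 0.14 and 0.21, and any pairing would give positive ones, since the groups did not overlap. Absence of overlap with *Adar1* E861A higher, seen for 3 of the 9 members, occurred in 6.98% of all tested genes.

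*Irf1* (ENSMUSG00000018899; chromosome 11, 53583516 to 53591876, plus strand) encodes a factor induced by both interferon gamma and type I interferon. It stood at 3.22, 3.50 and 4.06 CPM in mutant libraries and at 3.29, 2.78 and 2.77 CPM in wild type. Wild-type replicate 1 exceeded *Adar1* E861A replicate 1, so the groups overlapped. The log2 fold change was 0.28 ± 0.14 (SE; 95% interval -0.01 to 0.58), with an adjusted p of 0.573.

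*Socs1* (ENSMUSG00000038037; chromosome 16, 10783901 to 10785629, minus strand) encodes a feedback inhibitor of JAK kinases. It was scarce, with 18, 21 and 17 counts in mutant libraries and 19, 13 and 25 in wild type, or 0.623, 0.579 and 0.633 against 0.525, 0.341 and 0.700 CPM. It was the single member that failed the CPM filter. The wild-type libraries spanned the whole range of the *Adar1* E861A libraries. With filterByExpr the log2 fold change was 0.23 ± 0.30 (SE, adjusted p 0.880), with a fold interval of 0.754 to 1.81.

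Both receptor chains are coded on chromosome 16. *Ifnar1* (ENSMUSG00000022967; 91485483 to 91507686, plus strand) stood at 39.8, 37.7 and 41.7 CPM in mutant libraries and at 41.8, 39.2 and 39.7 CPM in wild type. Its log2 fold change was -0.02 ± 0.05 (SE; fold interval 0.912 to 1.07, adjusted p 0.949). *Ifnar2* (ENSMUSG00000022971; 91373028 to 91419696, plus strand) stood at 9.87, 9.76 and 10.5 CPM against 9.76, 9.82 and 9.38 CPM. Its log2 fold change was 0.05 ± 0.08 (SE; fold interval 0.919 to 1.17, adjusted p 0.874). The groups overlapped for both chains.

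Groups overlapped for both kinases too. *Jak1* (ENSMUSG00000028530; chromosome 4, 100824972 to 100937887, minus strand) stood at 168, 161 and 160 CPM in mutant libraries and at 160, 164 and 163 CPM in wild type. Its log2 fold change of 0.0077 ± 0.042 (SE; adjusted p 0.975) had the tightest fold interval of the 9 members, 0.944 to 1.07. *Tyk2* (ENSMUSG00000032175; chromosome 9, 20908521 to 20931790, minus strand) stood at 13.3, 10.8 and 13.9 CPM against 13.0, 11.6 and 11.6 CPM. *Adar1* E861A replicate 2 was its lowest library and replicate 3 its highest. The log2 fold change was 0.06 ± 0.09 (SE; fold interval 0.907 to 1.20, adjusted p 0.874).

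**Figure D2:**
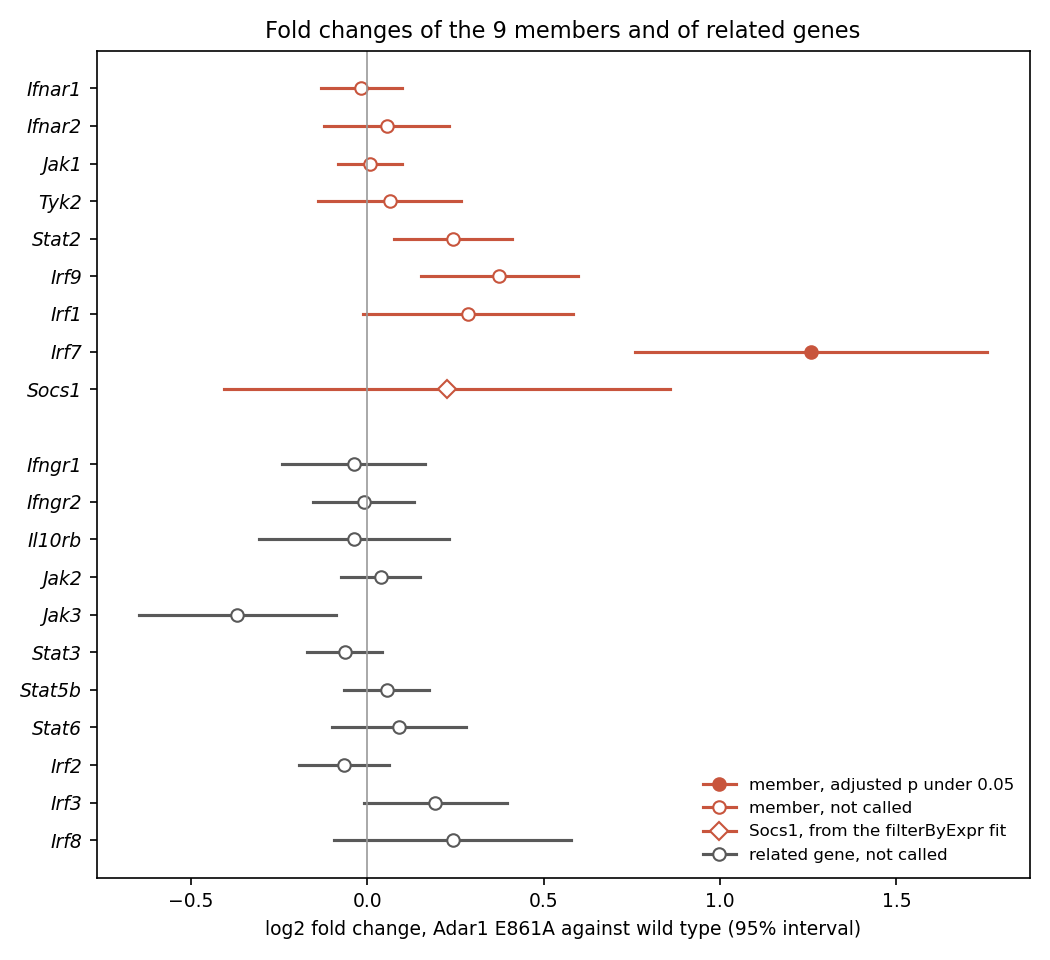
Log2 fold change of *Adar1* E861A against wild type (x axis) with its 95% interval for the 9 members (red) and for tested related receptor, JAK, STAT and IRF genes (grey). Filled points were called, open points were not, and the diamond marks *Socs1*, read from the filterByExpr fit. *Irf7* at 1.26 is the filled point, and the intervals of both receptor chains and both kinases include 0.

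Levels were compared between members per kilobase (kb) of merged annotated exon, since longer transcripts give more counts. In wild type the order of mean CPM per kb was *Jak1* (22.5), *Ifnar1* (6.84), *Stat2* (5.04), *Tyk2* (2.62), *Ifnar2* (2.48), *Irf9* (1.61), *Irf1* (0.742), *Irf7* (0.467) and *Socs1* (0.428). *Tyk2* and *Ifnar2* overlapped between libraries, as did *Irf7* and *Socs1*, and the remaining neighbours were separate. In *Adar1* E861A brain *Irf7* (1.11 CPM per kb) stood before *Irf1* (0.904 CPM per kb) with overlapping libraries, and *Ifnar1* (6.76) overlapped *Stat2* (5.98), as *Tyk2* (2.75) did *Ifnar2* (2.57). *Irf7* in *Adar1* E861A brain thus remained below *Irf9* (2.09 CPM per kb) in the same libraries. Exon lengths rest on all annotated transcripts, from 1 for *Tyk2* to 13 for *Irf7*, so a shorter transcript in use would raise the level per kb.

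**Figure D3:**
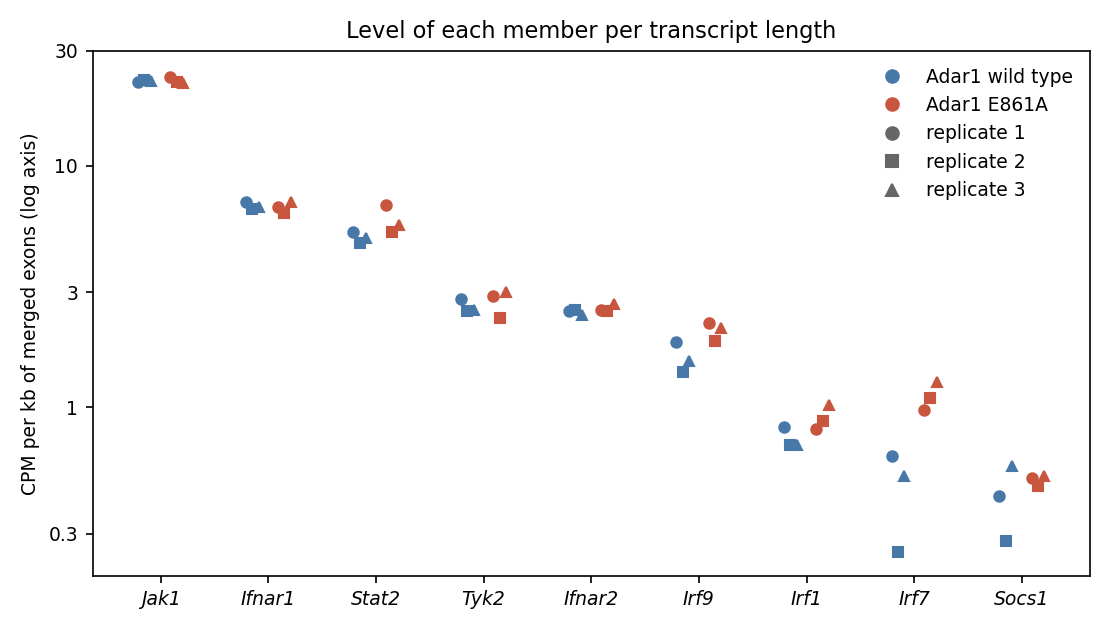
Level of each member in CPM per kb of merged exon (y axis, log scale) in each library, ordered by the wild-type mean, with colour for genotype and marker shape for replicate number. Receptor chains, kinases and *Stat2* lie between 2.34 and 23.3 CPM per kb in both genotypes, and *Irf7* lies at 0.974 to 1.27 in *Adar1* E861A against 0.252 to 0.631 CPM per kb in wild type.

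Some exons are shared with neighbouring genes. *Irf9* shared 123 exon bases with *Rnf31* on the same strand and *Ifnar2* shared 569 with *Il10rb*. *Irf7* shared 45 bases with *Phrf1* on the opposite strand, *Irf1* 135 with *Gm17334* and *Jak1* 4 with *Raver2*. *Rnf31* had a log2 fold change of -0.0872 ± 0.084 (adjusted p 0.796) and *Phrf1* of -0.0066 ± 0.0468 (adjusted p 0.981). The strand setting of the counting was not given in the sources used here, so counts from the opposite-strand stretches (*Irf7*, *Irf1* and *Jak1*) are uncertain. In the same-strand stretches (*Irf9* and *Ifnar2*) no strand setting separates the neighbours, so those counts are uncertain too.

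The rest of the pathway was read from lists. Of 7 other JAK and STAT genes reported here, 5 were tested and 0 were called by edgeR, DESeq2 or limma-voom, with 1 at an unadjusted p under 0.05. Over all tested genes edgeR called 0.506%, and 9.01% had an unadjusted p under 0.05, so 0 calls among 5 genes says little about the list. Among the tested genes the highest value was that of *Stat6*, which encodes the STAT of interleukin-4 signalling, at 10.5, 9.09 and 9.42 CPM with the mutation against 9.84, 8.46 and 8.96 CPM in wild type, which overlapped (log2 fold change 0.09 ± 0.09). *Stat4*, too low for the CPM filter, had 0.33 ± 0.21 with filterByExpr (adjusted p 0.721). The lowest value was that of *Jak3*, a kinase of lymphoid cytokine receptors, at 2.42, 2.81 and 2.72 CPM against 3.59, 3.36 and 3.36 CPM (log2 fold change -0.37 ± 0.13, adjusted p 0.414). *Jak3* was the gene with an unadjusted p under 0.05, and its groups did not overlap, with *Adar1* E861A lower, as in 6.81% of tested genes. Groups were also separate for *Stat3*, with *Adar1* E861A lower (log2 fold change -0.06 ± 0.05, adjusted p 0.735), and for *Stat4*, with *Adar1* E861A higher. The median over the 5 tested genes was 0.04 on the log2 scale, beside -0.0010 for all tested genes, and it was -0.0045 without wild-type replicate 2.

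Of 6 other IRF genes, 3 were tested and 0 were called, with 0 at an unadjusted p under 0.05 and 0 called by DESeq2 or limma-voom. Their log2 fold changes ran from -0.07 ± 0.06 for *Irf2*, a repressor of interferon genes, to 0.24 ± 0.16 for *Irf8*, a factor of microglia and other myeloid cells. Of the 7 type II and III interferon and receptor genes, 3 were tested, with 0 called and 0 at an unadjusted p under 0.05 (0 by DESeq2 or limma-voom). *Ifngr1* had the lowest value, -0.04 ± 0.09, and *Ifngr2* the highest, -0.01 ± 0.07. Both encode chains of the interferon gamma receptor. Over all tested genes edgeR called 0.506%, and 9.01% had an unadjusted p under 0.05. The absence of both among 3 tested genes per list thus says little about these lists.

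Ligand genes had few or no counts. Of 18 type I interferon genes, 17 were matched, 9 had 0 counts in all libraries and 16 had at most 3 counts in any library. A count of 3 is the limit that a count of 0 allows, 0.0788 to 0.112 CPM depending on the library. *Ifnk* was the exception at 10, 16 and 24 counts in mutant libraries and 21, 16 and 8 in wild type, which overlapped. Limits of this kind cover counting error only, and reads that fit several similar interferon alpha copies may not have been counted.

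Where 0.506% of all tested genes were called, 14 of 16 other inhibitors were tested and 1 was called. This was *Usp18*, which encodes a protease that displaces JAK1 from IFNAR2. It stood at 2.04, 2.48 and 2.53 CPM in *Adar1* E861A brain and at 0.802, 0.709 and 0.504 CPM in wild type, and like *Irf7* it passed the filter through the *Adar1* E861A group only. Its log2 fold change was 1.80 ± 0.20 (SE, adjusted p 0.000273), and 1.80 with filterByExpr (adjusted p 0.000164). The list median was 0.03. The remaining 13 were not called, among them *Socs2*, *Socs4*, *Socs5*, *Socs6*, *Socs7*, *Cish* and the 4 *Pias* genes.

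Downstream genes were read with filterByExpr, under which all 30 ISGF3 targets could be tested. This filter too can admit a gene through the libraries of 1 genotype, which favours genes that are higher there. The lists were drawn up with earlier results of these data known. Of the 30, 19 were called and all 19 were higher, where 0.568% of all 19366 genes were called. The median log2 fold change was 0.92 beside 0.0001 for all 19366 genes. With the CPM filter 19 were tested, 4 of them admitted through the *Adar1* E861A group only, and 10 were called (median 0.71). That fit called 0.506% of all tested genes. With 2 CPM in all 6 libraries 6 were called (median 0.42), of 42 called genes in all. How many genes that filter admitted is not given here, so this count cannot be set against a share. Among genes that passed the CPM filter, the 4 with the largest log2 fold change were *Ifit1* (2.00 ± 0.11), *Oasl2* (1.75 ± 0.14), *Bst2* (1.68 ± 0.19) and *Ifit3* (1.64 ± 0.13), with adjusted p of 5.87e-07, 1.27e-05, 0.000373 and 1.27e-05. *Ifit1* and *Ifit3* encode RNA-binding antiviral proteins, *Oasl2* a synthetase-like protein and *Bst2* the virus-tethering protein tetherin. Of these, *Oasl2* and *Bst2* passed the CPM filter through the *Adar1* E861A group only, and with filterByExpr their log2 fold changes were 1.74 and 1.68 (adjusted p 2.62e-06 and 0.000202). A group of 5 genes too low for the CPM filter, named after their values were seen, had larger log2 fold changes than *Ifit1* with filterByExpr. They were *Zbp1* (2.88 ± 0.41), *Ifi27l2a* (2.81 ± 0.47), *Ifi44* (2.78 ± 0.28), *Oas1a* (2.67 ± 0.45) and *Mx1* (2.10 ± 0.36). All but *Ifi44* passed filterByExpr through the *Adar1* E861A libraries only. Their wild-type counts were 7, 1 and 6 for *Zbp1*, 3, 3 and 3 for *Ifi27l2a*, 5, 7 and 1 for *Oas1a*, and 4, 6 and 10 for *Mx1*. At the other end of the list, *Cmpk2* stood at 0.04 ± 0.07 with the CPM filter.

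For targets of IRF1 and interferon gamma, 16 of 20 genes were tested with filterByExpr and 10 were called, each higher (median 0.71). That fit called 0.568% of all its genes. With the CPM filter 13 were tested, 4 through the *Adar1* E861A group only, and 8 were called, with a median of 0.73. That fit called 0.506% of all tested genes. Without *Adar1* E861A replicate 3, 4 of the list were called. With 2 CPM in all 6 libraries 4 were called (median 0.45), of 42 called genes in all, again without a share to set beside it. Among genes that passed the CPM filter, the leading 4 were *Nlrc5* (1.65 ± 0.20), which encodes the activator of MHC class I genes, and the GTPase genes *Gbp3* (1.42 ± 0.14), *Gbp2* (1.28 ± 0.16) and *Gbp4* (1.21 ± 0.19). Their adjusted p were 0.000487, 0.000139, 0.000969 and 0.00536. *Nlrc5*, *Gbp2* and *Gbp4* passed that filter through the *Adar1* E861A group only, and with filterByExpr their log2 fold changes were 1.64, 1.27 and 1.21 (adjusted p 0.00037, 0.000457 and 0.00417). *Cxcl10*, which encodes a chemokine for T cells and was too low for the CPM filter, had 24, 17 and 20 counts in mutant libraries against 1, 0 and 1 in wild type (filterByExpr adjusted p 0.000155). It passed filterByExpr through the *Adar1* E861A libraries only. Reads that fit several similar *Gbp* copies may not have been counted. The list serves no single factor, since ISGF3 drives many of these genes too. Targets of STAT3, a STAT outside ISGF3, gave 0 calls among 6 tested genes, with 0 at an unadjusted p under 0.05 and 0 by DESeq2 or limma-voom. Since 0.506% of all tested genes were called and 9.01% had an unadjusted p under 0.05, these zeros say little about the list. Its median was -0.08, which was -0.0018 without *Adar1* E861A replicate 1 and -0.00044 without wild-type replicate 1.

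**Figure D4:**
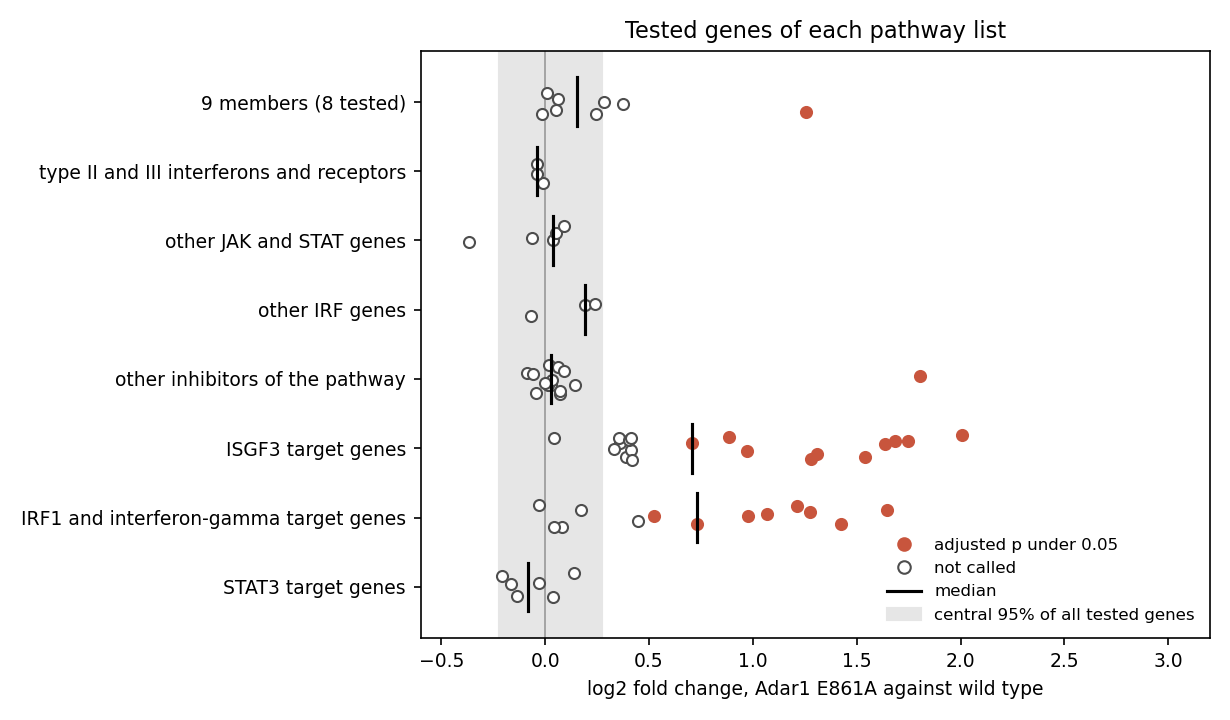
Log2 fold change of *Adar1* E861A against wild type (x axis) for every gene that passed the CPM filter in each list (y axis), with called genes filled, medians as black lines, and the central 95% of all tested genes (-0.22 to 0.27) shaded. Filled points lie mostly in the ISGF3 and IRF1 target lists (10 of 19 and 8 of 13), with 1 each among the members and the other inhibitors. Over all tested genes 0.506% were called.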

How the data were processed

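Whole-brain RNA was ribosome-depleted, and stranded libraries were sequenced with 75-base paired reads. The authors aligned reads to mm9 (NCBIM37) with STAR, which also counted reads per gene, and deposited raw counts with 1 column per library. STAR 2.5.2a and Trimmomatic 0.36 are named in the submitters' processing notes. The deposited comparison and CPM tables were not used. All 37310 identifiers matched GENCODE vM1, the source of positions, and 0 columns were unassigned. They were tested with edgeR 4.0.16 under R 4.3.3 (TMM, quasi-likelihood test, no covariates), on the 13649 genes at 2 CPM or more in all 3 libraries of either genotype, and p-values were adjusted over all of them by Benjamini-Hochberg. *Socs1* was read from a fit on the 19366 genes of filterByExpr. SE was the absolute log2 fold change divided by the square root of F. DESeq2 1.42.0, limma 3.58.1 (voom), other scalings and filters, the replicate block and omission of each library were alternatives. The test was checked on simulated counts.

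No sample label pairs the animals. Same-numbered libraries deviated together from their genotype means (r across tested genes of 0.220, 0.323 and 0.110). Other combinations ran from -0.251 to 0.052. The replicate block rests on this pairing, which was inferred from these same counts. The 3 deviations of a group sum to 0, so the block fit is no independent support for a call. The block fit left 2 residual degrees of freedom. The members and gene lists were chosen with earlier results of these data known. A pathway gene is not reported here. Named genes were the members, up to 4 called genes per list with the largest change, the highest and lowest of the JAK and STAT, IRF and receptor lists, and the 3 genes most like each called member. *Ifnk*, *Stat3*, *Stat4*, *Cmpk2*, *Cxcl10*, the uncalled inhibitors and genes that share exons were named after their values were seen. For rows without a symbol, a table of gene identifiers and names was used. Depth was 26853488 to 38076753 counts, and 3 counts, the limit at a count of 0, stood for 0.0788 to 0.112 CPM.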

Additional observations from a re-analysis of the deposited data

How the results depend on the processing

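*Irf7* kept its direction in each of the 13 alternatives that tested it (log2 fold change 0.96 to 1.53) and its call in 11, the exceptions being the omission of *Adar1* E861A replicate 3 or wild-type replicate 3. *Irf9* was called in 2 of 14 alternatives, with the replicate block and without a filter (adjusted p 0.0124, in a fit that calls 376 genes), and *Stat2*, *Irf1*, both receptor chains and both kinases in 0 of 14 and *Socs1* in 0 of 13. The replicate block gave 158 called genes and 2 called members in place of 69 and 1. It altered no further member's call and moved the called count of no list by over 1.5 times. Without a filter, 376 genes, 2 members and 34 genes of the pathway lists were called, against 19 such list genes as reported. The number of genes in that fit is not given here, so these counts have no share beside them. *Irf7* had an edgeR adjusted p of 1.76e-10 there, against 0.0225 as reported, so adjusted p from that fit, that of *Irf9* included, are not comparable with the others. With filterByExpr, 110 genes and 30 list genes were called. The filter of 2 CPM in all 6 libraries, which by construction drops genes that are low in either genotype, gave 42 genes, 0 members (*Irf7* could not be tested) and 10 list genes. Why the remaining counts moved was not tested. Omission of each library gave from 42 genes (without *Adar1* E861A replicate 3) to 113 (without *Adar1* E861A replicate 2; 108 without wild-type replicate 2), from 0 to 1 member and from 15 to 22 list genes. Signs of the smallest changes turned: *Jak1* was -0.0030 without a filter and ran from -0.0073 to 0.025 over the omissions, *Ifnar1* from -0.059 to 0.011 and *Tyk2* from -0.015 to 0.16. Over all alternatives, medians of single lists moved by more than the spread between replicates in 9 cases and did not in 89, and their called counts moved by over 1.5 times in 6 and did not in 92. Scaling by column totals or DESeq2 size factors left the median of all genes at -0.0022 or -0.0015 on the log2 scale and changed no member's call.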
